A study of Mus musculus with 6 samples.

Results

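Interferon-stimulated genes are switched on when interferons bind their receptors on the cell surface. The receptors activate the kinases Jak1 and Tyk2, which phosphorylate Stat proteins, and a complex that holds Stat2 and Irf9 then binds a short promoter sequence, the interferon-stimulated response element. The products hinder viruses at entry, replication, translation and release, and several of them feed back on the pathway, either as sensors and transcription factors that amplify it or as inhibitors that end it. Cultured endothelial cells and fibroblasts hold a low resting level of many of these transcripts without any added interferon.

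A list of 41 such genes was read from bulk RNA-sequencing of CD31-enriched primary mouse skin endothelial cells (ECs). The genes were chosen by name, with earlier results of these data known. All 41 were among the 55487 gene identifiers of the count table and all 41 passed the filter on low counts. The cells came from C57BL/6 mice 2 to 3 months old, with 4 to 6 mice used for an isolation, and no interferon or other agent is named beside glucose. Cultures were held for 48 hours in normal glucose (5 mmol/L, 3 samples) or high glucose (20 mmol/L, 3 samples). The comparison addresses how transcripts of these cells differ at a glucose level that mimics hyperglycemia. No osmotic control is named, so effects of glucose itself and of the added solute cannot be told apart. Neither the labels nor the methods say whether the 3 samples of a group were separate isolations, so P values measure the spread between these samples, which may be technical.

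Depth was high, with 120192466 to 146881356 counts per sample, so that the member with the fewest counts, Mx1, still averaged 163 counts and the one with the most, Ifitm3, averaged 104800. Levels are given as CPM, counts scaled to a common library total after TMM normalization, and changes as the log2 fold change of high over normal glucose with its standard error. A gene was called changed when its P value from the quasi-likelihood test of edgeR, adjusted by the Benjamini-Hochberg method over all 19015 tested genes, was under 0.05. An exact permutation test of a single gene cannot go below P = 0.1 with 3 samples against 3, so single genes were read only from that fit.

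The labelled cell type was checked first. Pecam1, which encodes CD31, had 19, 12 and 19 counts in the normal- and 9, 13 and 18 in the high-glucose samples. Of 12 endothelial markers, 9 were tested, of which 2 were called higher (22.2%) and 2 lower (22.2%). Over all tested genes, these shares were 16.9% and 14.5%. Tie1 and Cldn5 stayed at or below 4 counts in every sample. Fibroblast genes were far more abundant, and Col1a1 had from 1007482 to 1944287 counts. The summed level of 12 fibroblast markers ranged from 38020 to 41180 CPM in normal glucose and from 71030 to 76020 CPM in high glucose. Of the 12, 11 were called higher (91.7%), and Pdpn was called lower at -0.67 (edgeR adjusted P = 3.7e-06). Col3a1 had the largest mean level of the 12, at 12420 CPM in normal glucose and 32510 CPM in high glucose. The endothelial markers summed to 203.8 to 232 CPM in normal glucose and 184 to 190.3 CPM in high glucose, but Eng and Flt1 held 94.8% to 96% of that sum. The other 10 endothelial markers summed to 9.15 to 9.503 CPM in normal glucose and 9.42 to 9.65 CPM in high glucose. That sum does not show the changes of single markers. Cdh5, which encodes VE-cadherin, had 231, 242 and 236 counts in the normal- and 130, 91 and 125 in the high-glucose samples. It was called lower, with a log2 fold change of -1.03 (edgeR adjusted P = 1.4e-04). Flt1 was the other marker called lower, at -0.53 (edgeR adjusted P = 3.0e-05). The 2 markers called higher were Tek, at 0.66 (edgeR adjusted P = 0.0022), and Erg, at 1.45 (edgeR adjusted P = 0.045) on 2 to 15 counts. Several defining EC genes were thus close to absent, and what follows describes cultures labelled as ECs. In bulk samples, fewer cells of a type and less RNA per cell cannot be told apart.

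The promoters of the members were examined for the response element. RefSeq promoter windows for GRCm38.p6, which run from 250 bases before to 50 bases after a gene's start, were at hand for 32 of the 41 members, and Mx1, Mx2, Usp18, Oas2, Ifi27, Dhx58, Rtp4, Parp9 and Parp14 had none. Each window was searched on both strands for the element's core letters, TTTCNNTTTC. The 200 bases that end just before the RefSeq start are shown 5′ to 3′ in the direction of transcription for 5 members that fell in high glucose, with matches in capitals.
Rsad2, chr12:26456453-26456652, minus strand: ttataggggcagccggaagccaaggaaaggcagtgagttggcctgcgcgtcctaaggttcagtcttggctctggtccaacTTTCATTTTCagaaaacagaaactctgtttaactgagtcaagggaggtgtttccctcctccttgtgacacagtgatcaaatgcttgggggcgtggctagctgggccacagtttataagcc
Ifit1, chr19:34640689-34640888, plus strand: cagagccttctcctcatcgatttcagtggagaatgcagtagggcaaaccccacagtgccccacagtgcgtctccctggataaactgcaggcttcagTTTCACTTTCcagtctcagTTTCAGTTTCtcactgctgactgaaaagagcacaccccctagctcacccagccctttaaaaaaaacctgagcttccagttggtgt
Ifit3, chr19:34583329-34583528, plus strand: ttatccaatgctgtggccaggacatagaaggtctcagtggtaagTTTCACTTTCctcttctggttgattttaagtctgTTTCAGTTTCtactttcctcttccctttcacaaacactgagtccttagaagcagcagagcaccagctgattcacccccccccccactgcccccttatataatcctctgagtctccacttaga
Ifit3b, chr19:34607757-34607956, plus strand: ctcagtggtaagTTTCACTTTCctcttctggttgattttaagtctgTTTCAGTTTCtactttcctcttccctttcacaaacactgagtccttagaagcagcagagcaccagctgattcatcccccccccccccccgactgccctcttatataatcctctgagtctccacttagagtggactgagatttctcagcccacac
Isg15, chr4:156200819-156201018, minus strand: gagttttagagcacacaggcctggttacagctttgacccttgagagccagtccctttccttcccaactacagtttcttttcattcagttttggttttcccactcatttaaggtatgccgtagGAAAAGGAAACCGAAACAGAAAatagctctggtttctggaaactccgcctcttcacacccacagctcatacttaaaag
Rsad2 held 1 match, which began 120 bases before the start. Ifit1 held 2 matches that began 104 and 85 bases before the start. In Ifit3 and Ifit3b the same pair of matches was displaced, beginning 156 and 122 bases before the start in Ifit3 and 188 and 154 bases in Ifit3b. The full windows of these neighbouring genes were near copies, with 259 of the 260 bases aligned without a gap identical (99.6%). In Isg15, 3 overlapping matches on the opposite strand made up the capitalized run, and they began 78, 72 and 66 bases before the start.

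Across the list, 17 of the 32 members with a window (53.1%) held the letters, compared with 1079 of 27025 mouse genes (3.99%). Such a match is a description of letters and not a bound site. In these windows, exact matches did not divide the lower members from those not called. Near matches were not searched, and Oas2 and Ifi27, both called higher, had no window. They were present in 11 of 20 members that were lower in high glucose (55%) and in 6 of 11 that passed no test (54.5%). Ifit2, Oasl1, Cmpk2 and Ifi44 fell with no match in their windows, whereas Ifitm2, Ifitm3, Gbp2 and Gbp7 had a match and were not called. Ifitm1, the member that rose most, had none in its window. That window begins at position 140967826, inside the annotated gene span, which begins at 140967221. The letters TTCNNNGAA, the core of the gamma-activated sequence of interferon gamma signaling, were found in 9 of the 32 members (28.1%) and in 9.55% of all genes with a window.

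More of these transcripts were lower than higher in high glucose. Of the 41 members, 25 were called lower, 3 were called higher (Ifitm1, Oas2 and Ifi27) and 13 were not called. Over all 19015 tested genes, 14.5% were called lower and 16.9% higher. Since the list was chosen with earlier results of these data known, such shares describe it and are not a test. The log2 fold change was below 0 for 34 of the 41 members (82.9%), compared with 49% of all tested genes, and its median was -0.26 over the members and 0.01 over all tested genes. The samples of the groups did not overlap for 31 members, of which 27 were lower and 4 higher in high glucose, while 21.3% and 25.1% of all tested genes separated in those directions. Of all counts, the members held 0.379% to 0.384% in the normal-glucose samples and 0.308% to 0.327% in the high-glucose samples.

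**Figure D1:**
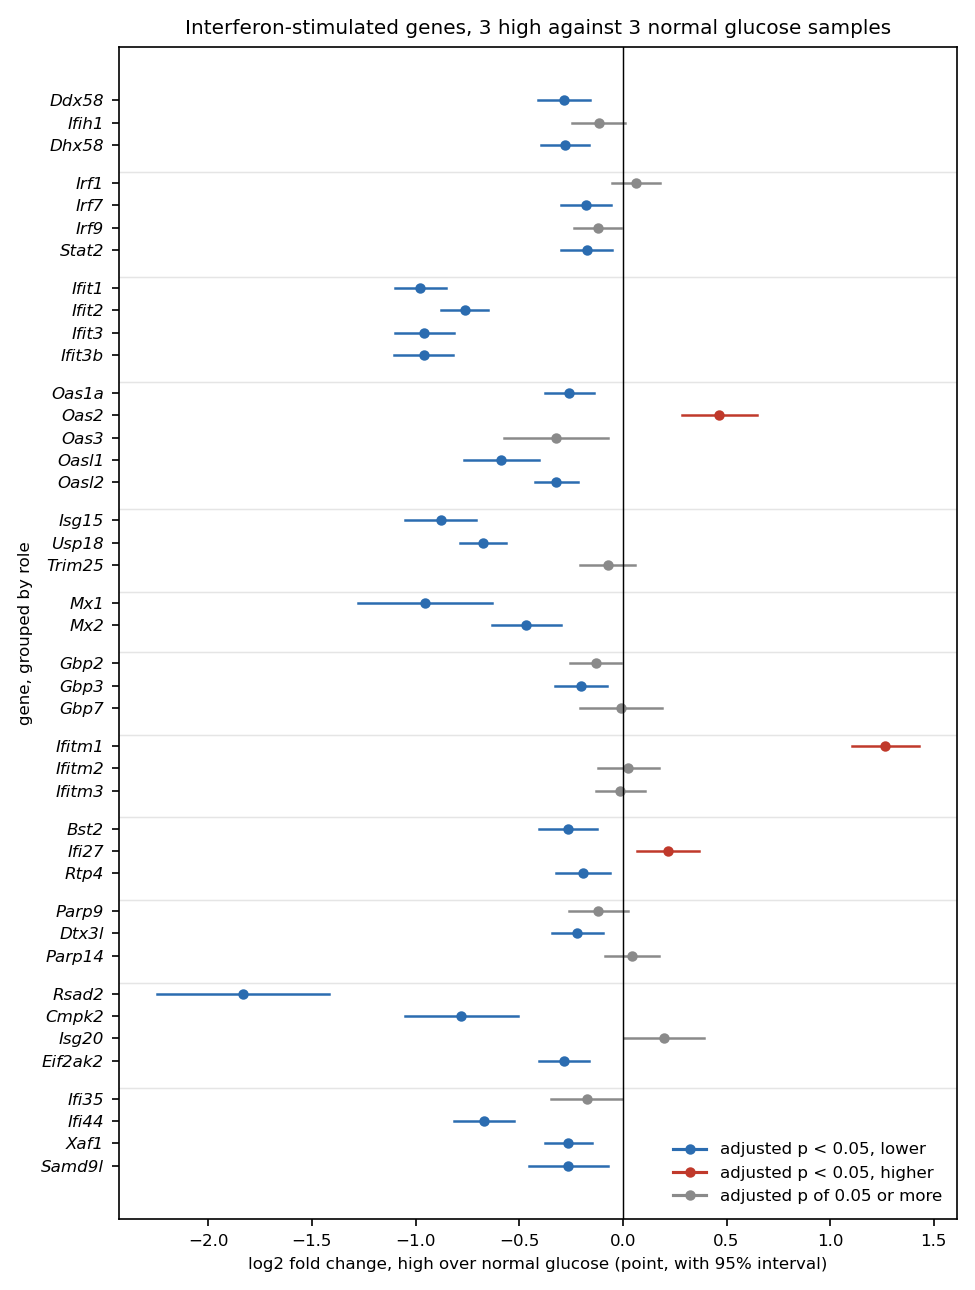
Log2 fold change of high over normal glucose for each of the 41 genes (x axis, point with its 95% interval from the edgeR fit, 3 samples per group), grouped by role on the y axis. Blue points are the 25 genes called lower, red points the 3 called higher and gray points the 13 not called, and Rsad2 at -1.83 and Ifitm1 at 1.27 are the outermost.

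Most falls were small. Of the 25 lower members, only Rsad2 fell by at least 1 on the log2 scale. Over all tested genes, 95 were called lower with a larger fall than Rsad2, and 244 were called higher with a larger rise than Ifitm1. A fall of at least 0.5 was seen for 11 members, where 7.22% of all tested genes were called lower by that much, and these were Rsad2, the 4 Ifit genes, Mx1, Isg15, Cmpk2, Usp18, Ifi44 and Oasl1. Mx2 and Oasl2 fell by between 0.3 and 0.5, and the other 12 lower members by under 0.3. In normal glucose, levels per length ran from 0.43 CPM per kilobase of exon for Mx1 to 1181 for Ifitm3, and genes with similar levels could differ in response, as with Ifit3b (16.5 CPM per kilobase in normal glucose and 8.48 in high glucose) and Ifitm1 (15.96 CPM per kilobase in normal glucose and 38.4 in high glucose).

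**Figure D2:**
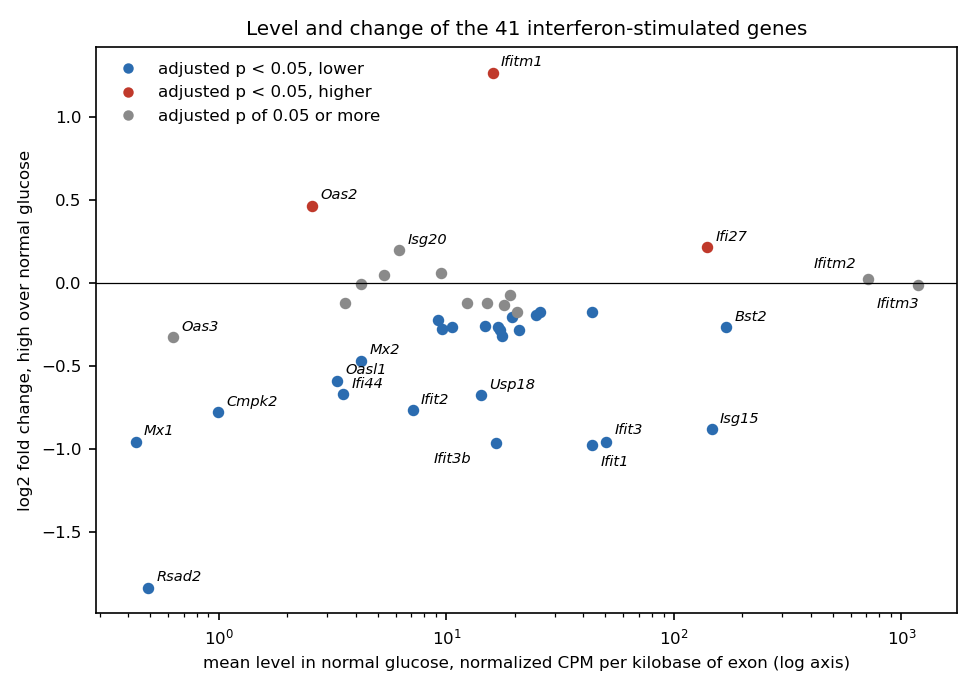
Mean level in normal glucose (x axis, normalized CPM per kilobase of exon, log axis) against the log2 fold change of high over normal glucose (y axis) for the 41 genes, 1 point each. Mx1 at 0.43 CPM per kilobase and Isg15 at 146.4 fell by 0.95 and 0.88, while the most abundant genes, Ifitm2 and Ifitm3, lie near 0.

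Rsad2 (viperin, ENSMUSG00000020641) encodes an enzyme that turns CTP into a chain terminator of viral RNA synthesis, and it gave the largest fall of the list. It was measured at 2.40, 2.03 and 1.94 CPM in normal glucose and 0.500, 0.791 and 0.504 CPM in high glucose. The 3 high-glucose samples all lay below the normal-glucose range. Rsad2 fell by 71.9%, with a log2 fold change of -1.83 ± 0.19 (SE; edgeR adjusted P = 4.3e-05), although the gene was scarce, with 68 to 300 counts per sample. Cmpk2, which encodes a mitochondrial nucleotide kinase and lies close to Rsad2 on chromosome 12, on the opposite strand, was measured at 3.53, 4.70 and 4.15 CPM in normal glucose and 2.59, 2.38 and 2.24 CPM in high glucose. These groups did not overlap either, and Cmpk2 fell with a log2 fold change of -0.78 ± 0.12 (SE; edgeR adjusted P = 8.1e-04). Of the other enzymes that act on RNA, Eif2ak2 (PKR), the kinase that stops translation when it meets double-stranded RNA, fell by 17.9% with a log2 fold change of -0.28 (edgeR adjusted P = 0.0026). Isg20, an exonuclease that degrades viral RNA, was not called, at 0.20 (95% interval 0.01 to 0.39). Such intervals are not adjusted for the number of genes, so one that leaves out 0 can belong to a gene that was not called.

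The Ifit genes encode antiviral proteins, of which Ifit1 binds viral RNA at its 5′ end and blocks its translation. All 4 listed members were called lower, where 14.5% of all tested genes were. Their summed level was 264 ± 12.6 CPM in normal glucose and 137 ± 4.45 CPM in high glucose (SD, n = 3 and 3). They lie together on the plus strand of chromosome 19, between positions 34550694 and 34650009 of GRCm38. Ifit1 (ENSMUSG00000034459) was measured at 123, 114 and 110.2 CPM in normal glucose and 58.2, 60.0 and 58.1 CPM in high glucose. The groups were far apart, and Ifit1 fell by 49.2%, with a log2 fold change of -0.98 ± 0.06 (SE; edgeR adjusted P = 7.8e-07). Ifit3 (ENSMUSG00000074896) was measured at 92.4, 80.8 and 90.0 CPM in normal glucose and 43.6, 47.6 and 44.3 CPM in high glucose. The groups were again apart, and the log2 fold change was -0.96 ± 0.06 (SE; edgeR adjusted P = 2.5e-06). Ifit3b (ENSMUSG00000062488), its near copy, was measured at 35.2, 31.1 and 32.6 CPM in normal glucose and 16.6, 17.9 and 16.4 CPM in high glucose. It followed Ifit3 with a log2 fold change of -0.96 ± 0.06 (SE; edgeR adjusted P = 2.2e-06), but the pair cannot be read as independent. Of the 75-base stretches in annotated Ifit3 transcripts, 41.1% also occurred in Ifit3b, and how the counting divided such reads between genes is not known. With the counts of both genes added before the fit, the log2 fold change was -0.96. Ifit2 (ENSMUSG00000045932) was measured at 28.1, 28.0 and 27.6 CPM in normal glucose and 15.99, 16.9 and 16.4 CPM in high glucose. Its normal-glucose replicates lay close together, the groups did not overlap, and the log2 fold change was -0.76 ± 0.05 (SE; edgeR adjusted P = 2.5e-06).

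Isg15 is a small ubiquitin-like protein that is joined to other proteins, and with 146 CPM per kilobase in normal glucose and 79.6 in high glucose it was one of the more abundant members per length. In normal glucose it ranked after Ifitm3, Ifitm2 and Bst2, and in high glucose Ifi27 also lay above it. Isg15 (ENSMUSG00000035692) was measured at 123, 97.8 and 112 CPM in normal glucose and 61.3, 59.1 and 60.1 CPM in high glucose. The normal-glucose samples varied more than the high-glucose samples, but the groups did not overlap. Isg15 fell by 45.6%, with a log2 fold change of -0.88 ± 0.08 (SE; edgeR adjusted P = 1.4e-05). Usp18, the protease that removes Isg15 from its targets and also blocks signaling at the receptor subunit Ifnar2, was measured at 39.8, 38.7 and 40.4 CPM in normal glucose and 24.7, 24.4 and 25.3 CPM in high glucose. Both groups were tight and well separated, with a log2 fold change of -0.68 ± 0.05 (SE; edgeR adjusted P = 4.6e-06). Trim25, a ubiquitin ligase that acts on the RNA sensor Ddx58, overlapped between groups and was not called, at -0.07 (95% interval -0.21 to 0.06).

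**Figure D3:**
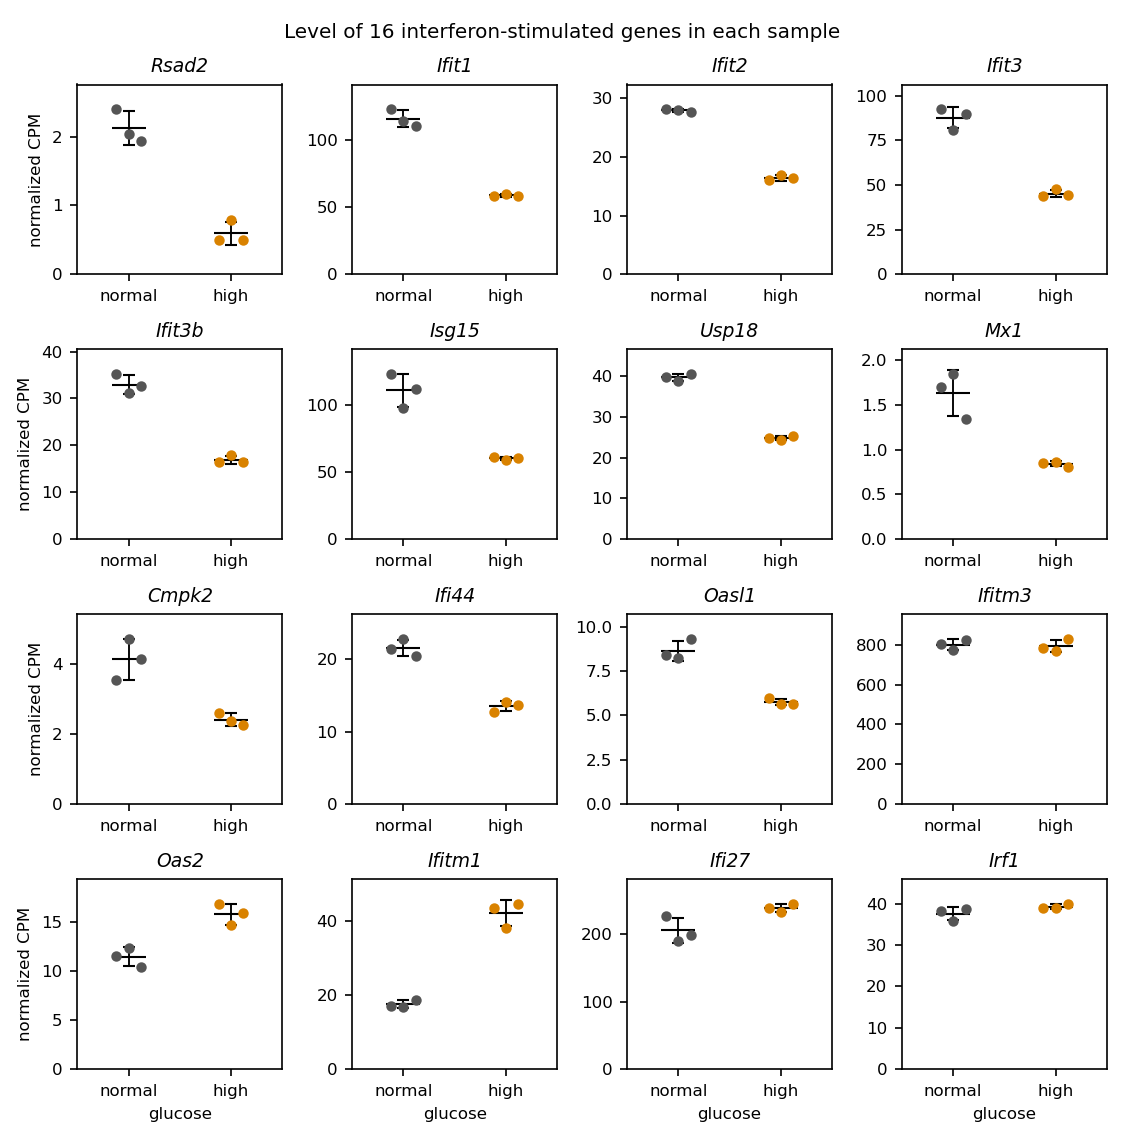
Normalized CPM (y axis, starting at 0) of 16 genes in each of the 3 normal-glucose (gray) and 3 high-glucose (orange) samples, with the mean (bar) and SD (whiskers) of each group. The panels from Rsad2 to Oasl1 show lower high-glucose samples with no overlap, Ifitm3 overlaps, Oas2, Ifitm1 and Ifi27 are higher in high glucose, and Irf1 is separated by a narrow gap but was not called.

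The Mx genes encode GTPases that trap viral nucleocapsids, and laboratory strains such as C57BL/6 carry defective alleles of them. Mx1 (ENSMUSG00000000386) was measured at 1.70, 1.84 and 1.34 CPM in normal glucose and 0.853, 0.860 and 0.809 CPM in high glucose. Its counts were between 100 and 261 per sample, and the groups did not overlap. The log2 fold change was -0.95 ± 0.15 (SE; edgeR adjusted P = 6.9e-04). Mx2 (ENSMUSG00000023341) was measured at 14.7, 15.9 and 15.0 CPM in normal glucose and 10.7, 10.3 and 12.0 CPM in high glucose. Its groups did not overlap either. It fell less than Mx1 in value, with a log2 fold change of -0.47 ± 0.07 (SE; edgeR adjusted P = 9.2e-04), and the difference between the genes was not tested. Ifi44, an antiviral protein of uncertain mechanism, was measured at 21.4, 22.8 and 20.5 CPM in normal glucose and 12.8, 14.1 and 13.7 CPM in high glucose. Its fall had a log2 fold change of -0.67 ± 0.07 (SE; edgeR adjusted P = 3.2e-05), again with no overlap.

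The Oas family held called members in both directions, 3 lower (60%) and 1 higher (20%) of 5. Over all tested genes, these shares were 14.5% and 16.9%, so the share called higher was close to that of all genes. Oas enzymes make short 2′-5′ linked adenylates when they meet double-stranded RNA. Oasl1, a relative without this activity that represses Irf7 translation in mice, was measured at 8.38, 8.25 and 9.30 CPM in normal glucose and 5.97, 5.64 and 5.65 CPM in high glucose. Its groups did not overlap, and it fell with a log2 fold change of -0.59 ± 0.08 (SE; edgeR adjusted P = 3.6e-04). Oasl2 was measured at 112, 111 and 112 CPM in normal glucose and 89.7, 88.3 and 90.3 CPM in high glucose. Its replicates differed by little, the groups did not overlap, and Oasl2 fell by 19.9%, with a log2 fold change of -0.32 ± 0.05 (SE; edgeR adjusted P = 4.9e-04). Oas1a fell by 16.4%, with a log2 fold change of -0.26 (edgeR adjusted P = 0.0042), and since 47.6% of its 75-base stretches also occur in Oas1g the counts of both were added, which gave -0.23. Oas3 was lower in every high-glucose sample at 4.45 ± 0.602 CPM in normal glucose and 3.56 ± 0.206 CPM in high glucose (SD, n = 3 and 3), but its log2 fold change of -0.32 (edgeR adjusted P = 0.052) missed the threshold, and it was called lower in 9 of the 17 other settings.

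Oas2 (ENSMUSG00000032690) went the other way. It was measured at 11.5, 12.4 and 10.4 CPM in normal glucose and 16.8, 14.7 and 15.9 CPM in high glucose. The lowest high-glucose sample lay above the highest normal-glucose sample. The log2 fold change was 0.47 ± 0.08 (SE; edgeR adjusted P = 0.0015). Oas1a, Oas2 and Oas3 lie near each other on the minus strand of chromosome 5, with other Oas1 genes between Oas3 and Oas1a. Oas2 was called higher and Oas1a lower, while Oas3, beside Oas2, was not called.

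The Ifitm proteins sit in membranes and stop viruses from fusing with them. Ifitm1 (ENSMUSG00000025491) rose most of all members and was measured at 16.9, 16.8 and 18.7 CPM in normal glucose and 43.5, 38.0 and 44.5 CPM in high glucose. The groups were widely separated, with a log2 fold change of 1.27 ± 0.07 (SE; edgeR adjusted P = 8.1e-07), which is 2.41-fold higher. Its neighbours on chromosome 7 did not share this rise. Ifitm3 (ENSMUSG00000025492), the member with the most counts per length, was measured at 802, 774 and 826 CPM in normal glucose and 786, 769 and 828 CPM in high glucose. These values overlapped throughout, and the log2 fold change was -0.01 (95% interval -0.13 to 0.11), a result that was not called. Ifitm2 was at 465 ± 6.93 CPM in normal glucose and 474 ± 41.6 CPM in high glucose (SD, n = 3 and 3), with a log2 fold change of 0.03 (95% interval -0.12 to 0.17), and 42% of its 75-base stretches also occur in other genes, most of them in the read-through gene Gm45717. Ifitm2 and Ifitm3 together supplied a mean of 34.5% of the members' counts in the normal-glucose samples and 38.3% in the high-glucose samples. With all 41 members, the summed level was 3667 ± 43.2 CPM in normal glucose and 3312 ± 82 CPM in high glucose, and without this pair it was 2400 ± 21.7 CPM and 2040 ± 18 CPM (SD, n = 3 and 3).

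Among the other membrane proteins, Ifi27, a small hydrophobic mitochondrial protein, was at 205 ± 19.0 CPM in normal glucose and 238 ± 6.29 CPM in high glucose (SD, n = 3 and 3). It was called higher with a log2 fold change of 0.22 (edgeR adjusted P = 0.034), but the call was lost in 8 of the 17 other settings (adjusted P up to 0.274 by edgeR). Bst2 (tetherin), which holds budding virus on the cell surface, fell by 16.8% with a log2 fold change of -0.26 (edgeR adjusted P = 0.0087). Rtp4, a chaperone of receptors that also binds viral RNA, fell by 12.4% with a log2 fold change of -0.19 (edgeR adjusted P = 0.03), a call that was lost in 3 of the 17 other settings (adjusted P up to 0.0972 by edgeR).

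The RNA sensors that start the interferon response in the cytoplasm are Ddx58, Dhx58 and Ifih1. Of these 3, 2 were called lower (66.7%), where 14.5% of all tested genes were. Ddx58 (RIG-I) was at 122 ± 6.96 CPM in normal glucose and 99.9 ± 1.48 CPM in high glucose (SD, n = 3 and 3), a log2 fold change of -0.28 (edgeR adjusted P = 0.0032). Dhx58 (LGP2), which tunes the other sensors, was at 31.2 ± 0.198 CPM in normal glucose and 25.7 ± 0.964 CPM in high glucose (SD, n = 3 and 3), a log2 fold change of -0.28 (edgeR adjusted P = 0.0023). Ifih1 (MDA5) overlapped between groups and was not called, at -0.12 (95% interval -0.25 to 0.01). The transcription factors changed by little. Irf7, which amplifies interferon production, fell by 11.5% with a log2 fold change of -0.18 (edgeR adjusted P = 0.031), a call that was lost in 4 of the 17 other settings (adjusted P up to 0.0875 by edgeR). Stat2 fell by 11.3% with a log2 fold change of -0.17 (edgeR adjusted P = 0.036), a call that was lost in 6 of those settings (adjusted P up to 0.11 by edgeR). Irf9, the DNA-binding partner of Stat2, was lower in every high-glucose sample without passing the test, at -0.12 (95% interval -0.23 to -0.01), and it was called lower in 7 of those settings. Irf1, a factor shared with interferon gamma signaling, was higher in every high-glucose sample without passing the test, at 0.06 (95% interval -0.05 to 0.18).

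Of the guanylate-binding proteins, GTPases that attack the vacuoles of intracellular pathogens, Gbp3 fell by 13.1% with a log2 fold change of -0.20 (edgeR adjusted P = 0.022), and it was no longer called without high glucose replicate 1 (edgeR adjusted P = 0.0786). Gbp2 was lower in every high-glucose sample but was not called, at -0.13 (95% interval -0.25 to -0.01), and Gbp7 overlapped, at -0.01 (95% interval -0.21 to 0.19). Dtx3l and Parp9 form a complex that ubiquitinates and ADP-ribosylates targets in antiviral defense. Dtx3l fell with a log2 fold change of -0.22 (edgeR adjusted P = 0.012) and was no longer called without high glucose replicate 1 (edgeR adjusted P = 0.0505), and Parp9 was not called, at -0.12 (95% interval -0.26 to 0.02). The exons of these genes overlap by 458 bases on opposite strands, and strand use in the counting is not given in the sources used here, so reads from the shared part cannot be told apart. The same limit holds for exons of Dhx58, Irf1, Irf7, Oasl1, Usp18, Gbp2, Eif2ak2 and Ifi35, which share 24 to 290 bases with a gene on the other strand, and for Irf9, Gbp7, Ifitm2, Rtp4 and Parp14, which share 110 to 637 bases with a gene on their own strand. Parp14, another ADP-ribosyltransferase, was not called, at 0.05 (95% interval -0.08 to 0.18). Xaf1, which promotes apoptosis, fell by 16.7% with a log2 fold change of -0.26 (edgeR adjusted P = 0.0031). Samd9l, a restrictor of translation, was called lower with a log2 fold change of -0.26 (edgeR adjusted P = 0.04), although its groups overlapped, as they did for no other called member, and the call was lost in 5 of the 17 other settings (adjusted P up to 0.13 by edgeR). Ifi35, a regulator of innate signaling, was not called, at -0.17 (95% interval -0.35 to -0.0019).

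The interferon genes themselves were barely detected in either group. Of 21 listed ligands, 13 had 0 counts in all 6 samples. If counts are independent, this allows at most 0.0204 to 0.025 CPM in a sample (3 counts, scaled here to the library total without TMM normalization). The bound would be higher if both reads of a pair were counted. Ifnb1 had 2, 6 and 0 counts in the normal- and 0, 0 and 0 in the high-glucose samples. Ifna1, Ifna4, Ifna13, Ifnab, Ifne and Ifng reached no more than 6 counts in any sample. Ifnz alone passed the filter, at 71, 58 and 63 counts in the normal- and 64, 59 and 65 in the high-glucose samples, and was not called, at -0.03 (95% interval -0.44 to 0.39). For the ligands other than Ifnz, a difference in transcripts was therefore not detectable at this depth, and interferon protein was not measured.

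Outside the members, a list of 11 receptors, kinases and transducers, which leaves out the members Stat2 and Irf9, had 5 genes called higher (45.5%) and 0 lower, where 16.9% and 14.5% of all tested genes were called in those directions. Its median log2 fold change was 0.15. Ifnar1, a subunit of the type I receptor, was at 88.8 ± 5.77 CPM in normal glucose and 114 ± 1.61 CPM in high glucose (SD, n = 3 and 3), a log2 fold change of 0.37 (edgeR adjusted P = 8.4e-04). Ifnar2, its partner, was at 97.4 ± 4.56 CPM in normal glucose and 141 ± 6.497 CPM in high glucose (SD, n = 3 and 3), a log2 fold change of 0.53 (edgeR adjusted P = 6.3e-05). Jak2, a kinase of the interferon gamma receptor, rose with 0.51 (edgeR adjusted P = 1.8e-04), Il10rb, a subunit of the lambda receptor, with 0.37 (edgeR adjusted P = 6.7e-04), and Stat3 with 0.19 (edgeR adjusted P = 0.018). The receptors Ifngr1 at 0.12 (95% interval 0.01 to 0.23), Ifngr2 at -0.12 (95% interval -0.24 to -0.01) and Ifnlr1 at -0.35 (95% interval -1.22 to 0.52) were not called, the last on 7 to 16 counts.

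Negative regulators of the pathway outside the members included 5 genes called higher (50%) and 1 called lower (10%) of 10. That list leaves out the members Usp18 and Oasl1, inhibitors described above, which were called lower at -0.68 and -0.59. Socs1, which inhibits Jak kinases, rose with a log2 fold change of 0.52 (edgeR adjusted P = 6.4e-04), Irf2, which competes with Irf1 at its sites, with 0.36 (edgeR adjusted P = 6.1e-04), and Socs3 with 0.28 (edgeR adjusted P = 0.0069). Ptpn6, a phosphatase best known in blood cells, fell with -0.97 (edgeR adjusted P = 0.011), on 50, 71 and 65 counts in the normal- and 29, 37 and 27 in the high-glucose samples. Of 20 upstream sensors, adaptors and kinases, 4 were called higher (20%) and 3 lower (15%), shares close to the 16.9% and 14.5% of all tested genes. The called genes included Aim2, a sensor of cytoplasmic DNA, at -1.30 (edgeR adjusted P = 3.0e-04), Irf5 at -0.53 (edgeR adjusted P = 9.4e-04) and the adaptor Myd88 at 0.34 (edgeR adjusted P = 5.0e-04).

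**Figure D4:**
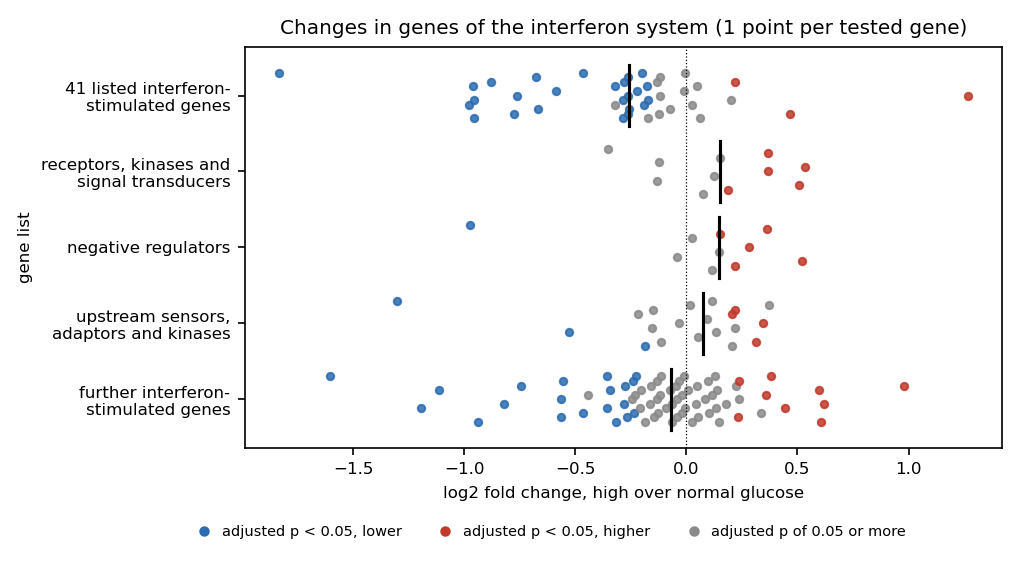
Log2 fold change of high over normal glucose (x axis) for each tested gene of 5 lists (y axis), 1 point per gene, with vertical bars at the list medians and a dotted line at 0. The median was -0.26 for the 41 listed genes, 0.15 for receptors, kinases and transducers, 0.15 for negative regulators, 0.07 for upstream sensors and -0.07 for further interferon-stimulated genes.

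A second list of 74 further interferon-stimulated genes moved in both directions. Of its 72 tested genes, 20 were called lower (27.8%) and 9 higher (12.5%), compared with 14.5% and 16.9% of all tested genes, and its median log2 fold change was -0.07. Ifi209, a member of the DNA-sensing Ifi200 family, had 157, 183 and 163 counts in the normal- and 55, 51 and 58 in the high-glucose samples, and its log2 fold change was -1.60 (edgeR adjusted P = 1.4e-05). Ifit1bl1, a relative of Ifit1, had 143, 123 and 105 counts in the normal- and 55, 54 and 61 in the high-glucose samples, and its log2 fold change was -1.12 (edgeR adjusted P = 0.001). The 2 relatives of Ifi27 went in opposite directions. Ifi27l2b fell with -1.20 (edgeR adjusted P = 0.0012), on 32 to 112 counts, and Ifi27l2a rose with 0.98 (edgeR adjusted P = 4.7e-06), on 1448 to 3286 counts.

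Other cells that could contribute these transcripts were looked for with marker lists. Of 10 macrophage and leukocyte markers, 7 were tested, of which 3 were called lower (42.9%) and 1 higher (14.3%). Over all tested genes, these shares were 14.5% and 16.9%. Csf1r at -0.73 (edgeR adjusted P = 0.001), Cd68 at -0.46 (edgeR adjusted P = 0.046) and Mrc1 at -1.41 (edgeR adjusted P = 0.014) were called lower and Cd14 at 1.16 (edgeR adjusted P = 5.9e-07) higher, and the list summed to 17.6 to 20.01 CPM in normal glucose and 27.02 to 27.96 CPM in high glucose. Cd14 alone set the direction of this sum, and the other 9 markers summed to 8.69 to 9.95 CPM in normal glucose and 5.94 to 6.79 CPM in high glucose. Ptprc, the pan-leukocyte gene, had 16 counts in 1 normal-glucose sample and 0 in the other 5. Adgre1 had at most 3 counts, and Itgam had 10, 11 and 0 counts in normal glucose and 0 in every high-glucose sample. Of 9 markers of plasmacytoid dendritic cells and lymphocytes, 7 were at 0 in every sample, including Siglech and Cd3e, and 0 of the 2 tested were called. That list summed to 0.164 to 0.331 CPM in normal glucose and 0.232 to 0.297 CPM in high glucose. Of 6 keratinocyte markers, 4 were tested, of which Krt5 was called higher (25%) and Perp lower (25%). The keratinocyte list summed to 2.55 to 3.47 CPM in normal glucose and 2.35 to 2.78 CPM in high glucose. Krt10 held most of that sum, with means of 2.32 and 2.01 CPM. Krt5 had 2, 2 and 2 counts in the normal- and 23, 12 and 14 in the high-glucose samples. Krt14, which was not tested, had 2, 0 and 0 counts and 35, 9 and 31 counts. The part of the marker genes that differed between the groups, those of fibroblasts, endothelial cells, macrophages and keratinocytes included, in the members' changes was not tested.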

How the data were processed

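Bulk poly(A) RNA-sequencing of 6 samples was analysed, 3 in normal and 3 in high glucose, grouped by their labels. For each gene and sample the authors deposited a whole-number read count from StringTie, without normalization, after trimming with Trimmomatic and HISAT2 alignment to GRCm38. Versions, annotation release and strand setting are not given in the sources used here. The labels name TRIzol and the DNBSeq platform, but the methods give a QIAGEN kit and 75-base reads on a HiSeq. Counts of 2 were nearly as frequent as counts of 1 (9280 against 10842 entries), so both reads of a pair may have been counted. Floors cover counting error only, whereas the 95% intervals come from the edgeR fit and include the spread between samples.

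Counts were filtered with filterByExpr (minimum count 10, minimum total count 15), normalized with TMM and compared with the quasi-likelihood test of edgeR 4.0.16 in R 4.3.3, using Benjamini-Hochberg adjusted P values with 0.05 as the threshold. Standard errors came from the test statistic. The biological coefficient of variation was 8.44%. The fit was also run on simulated data that gave every gene the same biological coefficient of variation. Such a run cannot show whether the calls in these data hold. TMM factors were 1.03 to 1.05 in normal and 0.954 to 0.966 in high glucose. Exon lengths, positions and 75-base stretches came from GENCODE M21 (GRCm38), and promoters from RefSeq.

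The members and lists were chosen with earlier results of these data known, and they were described by counts and medians. All members are named. Values in every sample are given for called members with an absolute log2 fold change of at least 0.3, for the member with the most counts per length and for the largest change in each direction, and at most the 4 largest called genes of each further list are named, beside receptors and detected ligands. A few genes that this rule or the lists would name are not reported here. Genes named as neighbours or markers are additions to this rule. DESeq2 1.42.0, other normalizations and filters, halved counts, a trend on GC content and length removed with mgcv 1.9.3, the replicate number as a block and each sample left out were the alternatives. Of 74 further genes, 72 were tested, and Mnda was left out because no identifier matched.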

Additional observations from a re-analysis of the deposited data

How the results depend on the processing

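In the 17 other settings, 21 of the 28 called members stayed called in the same direction, 19 of them lower and 2 higher (Ifitm1 and Oas2). The call was lost in at least 1 setting for Dtx3l, Gbp3, Ifi27, Irf7, Rtp4, Samd9l and Stat2, and no called member changed direction. Members without a call gained one in some settings, toward lower for Oas3 (9 settings), Irf9 (7), Gbp2 (5), Ifih1 (4), Trim25 (4), Parp9 (3) and Ifi35 (2), and toward higher for Isg20 (3). The number called lower ranged from 19 to 32 and the number called higher from 2 to 4, with 19 and 2 at an adjusted P value under 0.01, and 1 and 1 when a log2 fold change of at least 1 was also required.

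The median log2 fold change of the members was -0.30 with upper quartile normalization, -0.37 with library size alone, -0.28 with no filter, -0.27 with a stricter filter, -0.28 with halved counts, -0.24 with the GC and length trend removed and -0.24 with that trend removed together with the replicate block. Library size alone moved the median of all genes to -0.11, gave 4884 lower and 1819 higher calls over all genes in place of 2757 and 3212, and gave 35 lower calls in the further list. Upper quartile normalization gave 3407 lower and 2622 higher calls over all genes. Leaving out 1 sample gave medians from -0.27 to -0.23, 19 to 31 members called lower (19 without high glucose replicate 1, 31 without normal glucose replicate 1) and 2 to 4 called higher.

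Of the members not called, 5 changed sign. With library size alone, the log2 fold change of Irf1 was -0.052. Likewise, the log2 fold change of Gbp7 was 0.0017 with the replicate block and ran from -0.12 to 0.086 (the latter without normal glucose replicate 2) when 1 sample was left out. The log2 fold change of Ifitm2 was -0.016 with upper quartile normalization, -0.088 with library size alone and -0.032 (without high glucose replicate 3) to 0.083 with 1 sample left out. The log2 fold change of Ifitm3 was 0.13 with the GC and length trend removed, both without and with the block, and -0.059 to 0.0015 (without normal glucose replicate 3) with 1 sample left out. Last, the log2 fold change of Parp14 was -0.069 with library size alone, -0.097 with the trend removed, both without and with the block, and -0.010 (without normal glucose replicate 1) to 0.079 with 1 sample left out. The causes were not tested.

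Replicate numbers 1 to 3 recur in both groups, and deviations of same-numbered samples correlated at -0.025, 0.0038 and 0.013. These values showed no sign of pairing. Whether same-numbered samples share an isolation or batch is not stated, and 3 correlations cannot decide it. With the replicate block, 23 members were lower and 3 higher, the median was -0.26, and Rtp4 and Stat2 were no longer called. Of the 41 members, Mx1 and Rsad2 rest on the fewest counts.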
